A study of Mus musculus with 19 samples.

Results

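Kirrel, Kirrel2 and Kirrel3 encode the Kirrel family of cell adhesion molecules, and they are 3 of the 35596 genes quantified in whole vomeronasal organs of mice with and without Smad4 in vomeronasal sensory neurons (VSNs). The members were taken by gene name. They comprise 17 of the 116072 transcripts that could be paired with a gene, with 3 transcripts of Kirrel, 5 of Kirrel2 and 9 of Kirrel3. All 3 genes were detected in every library.

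Kirrel proteins have extracellular immunoglobulin domains, a single membrane span and a cytoplasmic tail. They bind to copies of themselves on neighbouring cells, and they are relatives of the fly proteins Roughest and Kirre. Kirrel, also called Neph1, is best known as a partner of nephrin at the slit diaphragm of the kidney. In the vomeronasal system, Kirrel2 and Kirrel3 are known to be made by largely complementary sets of VSN axons and to act in the sorting of those axons into glomeruli of the accessory olfactory bulb. Apical VSNs carry V1r receptors and the G protein subunit Gαi2, whereas basal VSNs carry V2r receptors and Gαo.

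All libraries came from female mice at postnatal day 21. In the AP2eCre line, Cre acts in basal VSNs before they mature, and in the OMPCre line it acts in mature apical and basal VSNs. The flox group of each line carried Smad4 flox/flox without Cre and has the label Wild Type. The Het group of each line carried 1 copy of the Cre allele (AP2eCre +/- or OMPCre +/-) with no floxed Smad4 named in its label. The cKO group carried the same Cre allele and floxed Smad4 (AP2eCre +/- SMAD4 Flox or OMPCre +/- SMAD4 Flox). Each of the 6 groups had 3 libraries, called replicates in the labels. Smad4 was thus intact in all cells outside the Cre lineage of the cKO organs, and these cells were part of the RNA.

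The 18 libraries that could be assigned to a group held between 43385516 and 134042284 estimated counts, with a median of 63096714. Smad4 averaged 59.6 ± 4.39 CPM (read counts scaled to library size; SD, n = 3) in the OMPCre cKO group, 72.4 ± 7.05 in the flox group and 79.2 ± 4.01 in the Het group. In the AP2eCre line it averaged 55.5 ± 18.8, 63.6 ± 21.5 and 55.0 ± 21.5 CPM in cKO, flox and Het libraries, which overlap. The counts do not separate the floxed exon from the rest of Smad4. Library names fell into a series with a letter and a number (12 libraries) and a series with AP or OMP and a number (6 libraries, 1 in each group), and what the names stand for was not stated in the sources used here. AP2eCre Het replicate 1 had the lowest basal marker score of all 18 libraries (4.43, the mean log2 CPM of 13 basal genes).

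Kirrel3 transcripts differ in 2 coding features that bear on the results below. A 36-base exon, the length of 12 codons, on chromosome 9 (GRCm38, chr9:35025111-35025146, plus strand) is present in Kirrel3-208, the main transcript, and is skipped in Kirrel3-206. Capitals mark this exon and lower case the coding bases on each side.
Kirrel3-208: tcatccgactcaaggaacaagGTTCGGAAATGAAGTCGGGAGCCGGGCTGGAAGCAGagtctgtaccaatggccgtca
Kirrel3-206: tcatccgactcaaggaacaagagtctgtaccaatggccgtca

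The second feature is the 3′ end. Kirrel3-209 and the 5′-incomplete Kirrel3-207 read on past the splice site at the end of a shared exon and meet a stop codon, whereas Kirrel3-208 is spliced there to the next exon and goes on with the reading frame. In the lines that follow, capitals mark the bases after the last shared one. In Kirrel3-209 they run to the stop codon (chr9:35029884-35029952, plus strand). In Kirrel3-208 they are the first bases of the next exon (chr9:35034202-35034270, plus strand).
Kirrel3-209: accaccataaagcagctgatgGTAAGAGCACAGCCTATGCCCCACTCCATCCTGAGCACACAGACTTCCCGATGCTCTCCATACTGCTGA
Kirrel3-208: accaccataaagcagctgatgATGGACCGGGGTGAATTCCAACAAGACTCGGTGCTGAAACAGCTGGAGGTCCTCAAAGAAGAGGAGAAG

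In Kirrel2, the partial transcript Kirrel2-205 lacks 39 bases (the length of 13 codons, chr7:30450440-30450478, minus strand) that Kirrel2-201 holds, marked by capitals. Sequences are those of the GENCODE vM21 reference transcripts on GRCm38, read 5′ to 3′ on the strand of the gene.
Kirrel2-201: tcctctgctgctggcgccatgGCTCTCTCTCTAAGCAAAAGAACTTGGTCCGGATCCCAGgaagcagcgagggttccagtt
Kirrel2-205: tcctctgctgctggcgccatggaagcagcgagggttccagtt

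The first question was whether loss of Smad4 from maturing basal VSNs went with a change in the level of a Kirrel gene. Kirrel was higher in each of the 3 AP2eCre cKO libraries than in all 6 controls of that line, but the difference did not pass the test across all genes. Kirrel2 and Kirrel3 showed no difference larger than the spread between replicates.

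Kirrel (ENSMUSG00000041734.15, chr3:87078593-87174747, minus strand) was at 120.3, 98.2 and 103.1 CPM in replicates 1 to 3 of the AP2eCre cKO group. It was at 86.7, 92.0 and 62.3 CPM in the flox group and at 86.4, 83.7 and 87.6 CPM in the Het group. The lowest cKO library thus lay above the highest control. Against both controls the log2 fold change was 0.37 (SE 0.119), with an adjusted p of 0.349 over all genes in the quasi-likelihood test of edgeR. An exact permutation test of the 3 cKO against the 6 control libraries (two-sided) gave p = 0.0119, the smallest that its 84 splits allow. Of all 18495 genes tested, 2.29% were likewise higher in every cKO library than in every control, and 7 genes (0.0378%) passed the adjusted threshold of 0.05, while DESeq2 called 309, none of them a Kirrel gene.

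The direction was shared by both kinds of control and by both series of library names. The log2 difference of Kirrel was 0.42 (SE 0.144, adjusted p = 0.535, edgeR) against the flox group alone, where 5 genes (0.027%) passed and 6.91% of genes were higher in each cKO library, and 0.32 (SE 0.143, adjusted p = 0.501, edgeR) against the Het group alone, where 19 genes (0.103%) passed and 7.54% were higher in each cKO library. Within the letter series the 2 cKO libraries (98.2 and 103.1 CPM) lay above the 4 controls (83.7 to 92.0 CPM), a log2 difference of 0.21. Within the AP series the single cKO library (120.3 CPM) lay above the 2 controls (62.3 and 87.6 CPM), a log2 difference of 0.70. Leaving out flox replicate 3, the lowest library, lowered the log2 difference from both controls to 0.30.

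Several marker lists also had medians away from 0 in these libraries, with 0 genes past the test. The summed level of 5 apical genes (Gnai2, Meis2, Nrp2, Pde4a and Efna5) was 1129 to 1167 CPM in the AP2eCre cKO libraries and 867.7 to 1046 CPM in the 6 controls. The 5 genes were all higher in the cKO group, with a median log2 difference of 0.28 beside 0.00 over all genes tested, and 0 passed the test (edgeR; 3 at an unadjusted p under 0.05, as were 1892 of all 18495 genes). Gnai2, which encodes Gαi2, was at 444.3 ± 30.0 CPM in the cKO group (SD, n = 3) and 365.7 ± 34.4 in the controls (SD, n = 6). Of the 13 basal genes 11 were lower, with a median log2 difference of -0.64, and 0 passed the test (edgeR; 5 at an unadjusted p under 0.05, beside the same 1892 of 18495 genes). Among them Vmn2r7, a V2r receptor, was at 84.0 ± 13.3 and 137.7 ± 39.4 CPM, and Gnao1, which encodes Gαo, at 189.8 ± 18.1 and 196.8 ± 36.7 CPM, while Robo2, an axon guidance receptor, was at 126.8 ± 14.2 and 105.3 ± 22.3 CPM, a log2 difference of 0.27. Both genes listed for proliferating cells were higher (median log2 difference 0.52; 157.4 to 185.2 CPM summed in the cKO libraries and 83.4 to 169.7 in the controls), as were the 4 listed for immature VSNs (median 0.32; 335.4 to 556.2 against 289.4 to 447.7 CPM). Of the 3 genes listed for cartilage and bone 2 were higher (median 0.32; 508.1 to 757.7 against 236.0 to 701.0 CPM, 0 at an unadjusted p under 0.05). Both genes listed for sustentacular cells, the supporting cells of the epithelium, were lower (median -0.71; 352.9 to 529.9 against 462.7 to 2078 CPM). The kinds of control differed for some lists. Against flox 12 of 13 basal genes were lower (median -0.69) and against Het 8 of 13 (median -0.43), and the sustentacular genes were 1 higher and 1 lower against flox (median -0.31) and both lower against Het (median -1.01). Against both controls 0 genes of the proliferating, immature VSN and sustentacular lists passed the test (edgeR), and 1 of 2, 0 of 4 and 1 of 2 were at an unadjusted p under 0.05. The part of a changed cell mix in the Kirrel values was not tested, and in RNA from a whole organ fewer cells of a type and less RNA per cell cannot be told apart.

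Kirrel2 (ENSMUSG00000036915.17, chr7:30447534-30457690, minus strand) was at 88.6, 99.8 and 104.2 CPM in the AP2eCre cKO group. The flox libraries were at 120.6, 81.7 and 121.2 CPM, and the Het libraries at 42.6, 76.2 and 137.9 CPM, so that the controls spanned the cKO values on both sides. The log2 fold change against both controls was 0.01 (SE 0.301, adjusted p = 0.994, edgeR), with an exact permutation p of 0.821.

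Kirrel3 (ENSMUSG00000032036.15, chr9:34485894-35036716, plus strand) was at 58.2, 56.2 and 77.6 CPM in the AP2eCre cKO group. It was at 81.6, 71.5 and 72.0 CPM in the flox group and at 34.3, 58.3 and 60.7 CPM in the Het group. Its log2 fold change against both controls was 0.02 (SE 0.228, adjusted p = 0.986, edgeR), with an exact permutation p of 0.881. The kinds of control gave opposite signs, at -0.23 (adjusted p = 0.872, edgeR) against flox and 0.32 (adjusted p = 0.661, edgeR) against Het. Leaving out single libraries gave -0.39 to -0.15 against flox and 0.11 to 0.47 against Het.

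**Figure D1:**
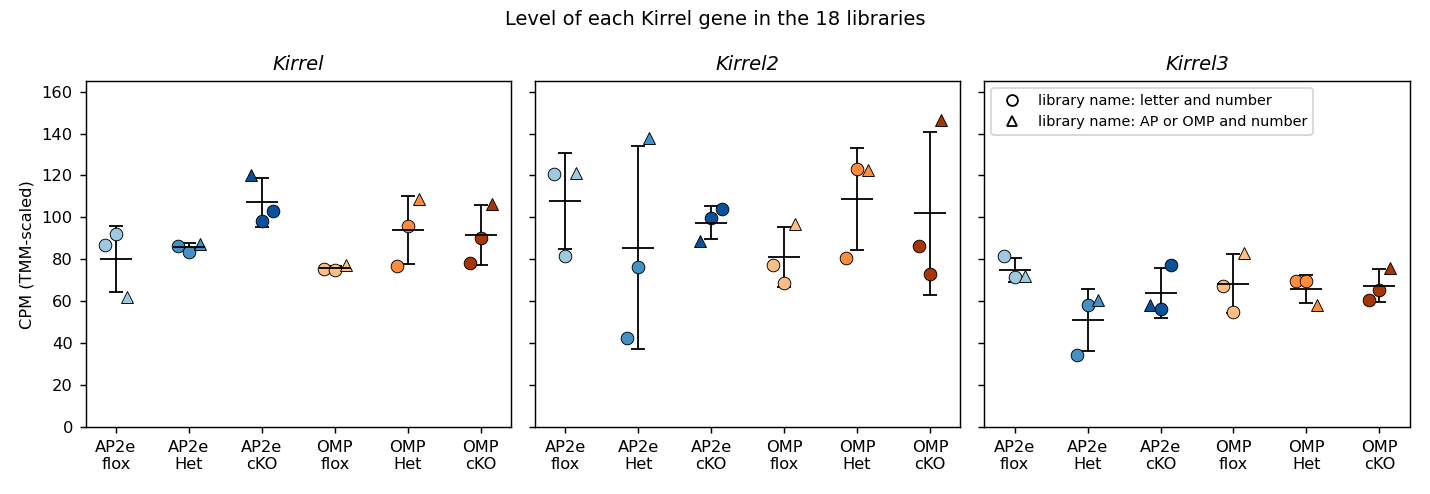
Level of each Kirrel gene, in CPM on a linear axis, in the 3 libraries of each of the 6 groups, with the group mean and SD; circles and triangles are the series of library names. The 3 AP2eCre cKO libraries sit at 98.2 to 120.3 CPM of Kirrel, above the 6 controls of that line, while the groups overlap for Kirrel2.

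In the AP2eCre line Kirrel3 was lower in the Het than in the flox controls, without passing the test across all genes. Each of the 3 Het libraries (34.3, 58.3 and 60.7 CPM) was below each of the 3 flox libraries (71.5, 72.0 and 81.6 CPM), as were 4.87% of all genes tested. The log2 difference was -0.55 (SE 0.210), with an unadjusted p of 0.0258 and an adjusted p of 0.900 by edgeR, and 9 genes (0.0487%) passed. The exact permutation p was 0.1, the smallest that 3 libraries against 3 can give. Without Het replicate 1 the log2 difference was -0.34. All 13 basal genes had a lower fitted level in the Het group, with a median log2 difference of -0.50 and 0 past the threshold (edgeR; 4 at an unadjusted p under 0.05, as 5.47% of all genes were). The basal score was 4.43, 5.59 and 5.46 in Het replicates 1 to 3 and 5.582 to 6.003 in the flox libraries, so that the groups narrowly overlapped. By summed CPM of the 13 genes they did not, at 483.8 to 940.7 in Het and 961.7 to 1194 in flox libraries. The difference in basal score of -0.66 was -0.29 without Het replicate 1, a value added after seeing the data. Tfap2e, the gene that holds the Cre insertion, was at 7.495 ± 1.83 CPM in the Het group and 15.3 ± 1.29 CPM in the flox group (SD, n = 3 each). Both sustentacular genes were higher in the Het group (median log2 difference 0.69; 800.5 to 2078 CPM summed against 462.7 to 802.7 in the flox group), with 1 of 2 at an unadjusted p under 0.05. The part of these genes in the Kirrel3 difference was not tested.

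The other comparison of controls addressed the OMPCre line. Kirrel3 was at 67.3, 55.0 and 83.2 CPM in the flox group and at 70.0, 69.8 and 58.4 CPM in the Het group, a log2 difference of -0.06 (SE 0.156, adjusted p = 0.984, edgeR). Kirrel was at 75.7, 74.8 and 77.2 CPM in the flox group and at 76.8, 96.1 and 108.8 CPM in the Het group. Its log2 difference was 0.30 (SE 0.142, adjusted p = 0.833, edgeR), with an exact permutation p of 0.2. Kirrel2 was at 77.5, 69.0 and 96.8 CPM in the flox group and at 80.6, 123.2 and 122.5 CPM in the Het group, a log2 difference of 0.41 (SE 0.269, adjusted p = 0.893, edgeR). None of the 3 genes was among the 14 (0.0752%) that passed. The 6 genes listed for main olfactory neurons were all higher in the same OMPCre Het libraries (325.6 to 368.2 CPM summed, against 183.4 to 226.2 CPM in the flox group). Of them 0 passed the test and 5 were at an unadjusted p under 0.05 (edgeR), as were 1088 of all 18623 genes. The part of these 6 genes in the Kirrel differences was not tested.

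Loss of Smad4 from mature neurons was asked about in the same way. In the OMPCre line the cKO libraries overlapped the controls for all 3 genes. Kirrel was at 78.4, 90.3 and 106.5 CPM in the cKO libraries, with a log2 fold change of 0.11 against both controls (SE 0.142, adjusted p = 1.00, edgeR). Kirrel2 was at 86.4, 73.0 and 146.3 CPM, with a log2 fold change of 0.10 (SE 0.248, adjusted p = 1.00, edgeR). Kirrel3 was at 60.9, 65.3 and 76.1 CPM, with a log2 fold change of 0.00 (SE 0.129, adjusted p = 1.00, edgeR). Exact permutation p values were 0.524, 0.774 and 0.952. In this comparison 0 of 18623 genes (0%) passed with edgeR, 735 (3.95%) had an unadjusted p under 0.05, and 43 passed with DESeq2, none of them a Kirrel gene.

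Against the OMPCre flox group alone, Kirrel was above all 3 controls in every cKO library (log2 difference 0.27, SE 0.142, adjusted p = 0.999, edgeR; exact permutation p = 0.1, the smallest possible), as were 4.48% of all genes. The summed apical genes were at 1069 to 1139 CPM in these cKO libraries and 952.1 to 959.1 CPM in the flox group, those of immature VSNs at 424.6 to 477.3 and 352.7 to 396.1 CPM, and those of proliferating cells at 68.3 to 101.5 and 106.6 to 146.9 CPM, each without overlap, and their part in the Kirrel value was not tested. Against the Het group the difference was -0.03 (SE 0.141, adjusted p = 1.00, edgeR), and 10 genes (0.0537%) passed. The kinds of control therefore gave different values in this line, and the 1 gene (0.00537%) that passed against flox was no Kirrel gene. Against Het the 6 main olfactory genes were all lower in the cKO group (median log2 difference -0.79), and 0 passed the test. Of them 5 were at an unadjusted p under 0.05 (edgeR), as were 851 of all 18623 genes, and their part was not tested.

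Whether the response to Smad4 loss differed between the lines was tested with an interaction term. For Kirrel the log2 fold change was larger in the AP2eCre line by 0.25 (SE 0.198, adjusted p = 1.00, edgeR). For Kirrel2 the difference was -0.09 (SE 0.423) and for Kirrel3 0.01 (SE 0.281). The interaction term passed the threshold in 0 of 19465 genes (0%) with edgeR, 956 (4.91%) had an unadjusted p under 0.05, and 19 passed with DESeq2. The controls of both lines were at like levels, with log2 differences between AP2eCre and OMPCre controls of -0.02 for Kirrel, 0.03 for Kirrel2 and -0.12 for Kirrel3 (adjusted p from 0.927 to 0.994, edgeR; 18 genes, 0.095%, passed).

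**Figure D2:**
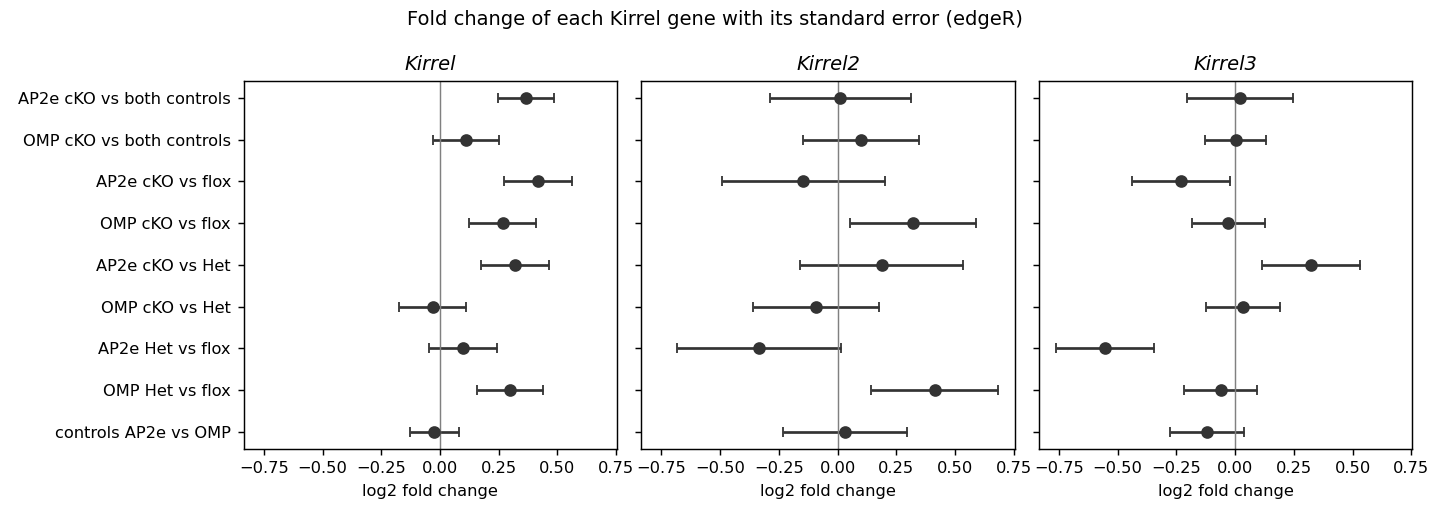
Log2 fold change of each Kirrel gene in each comparison, from edgeR, with bars of 1 standard error. For Kirrel the AP2eCre cKO comparison with both controls lies at 0.37, and for Kirrel3 the AP2eCre Het libraries lie 0.55 below flox; neither passed the adjusted threshold.

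Kirrel2 differed between the series of library names. Within groups, the library of the AP or OMP series was higher by 0.49 on the log2 scale (1.41-fold) than the mean of the letter series, and it was the highest library of its group in 4 of 6 groups. An exact permutation test that moved the series label within groups gave p = 0.0274 (adjusted p = 0.0439 over the 8 measures tested), with 729 arrangements and a smallest possible p of 0.00137. The same difference was 0.08 for Kirrel (p = 0.439, exact permutation) and 0.11 for Kirrel3 (p = 0.453, exact permutation). The split was looked at because the names differ, and what it stands for was not tested. How many other genes differed between the series was not counted.

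The cKO differences of Kirrel2 and Kirrel3 had opposite signs in the series in both lines. For Kirrel2 in the AP2eCre line it was 0.44 on the log2 scale within the letter series and -0.54 within the AP series, and in the OMPCre line -0.10 and 0.43. For Kirrel3 these values were 0.18 and -0.18, and -0.05 and 0.13. Each AP or OMP series value rests on 1 cKO and 2 control libraries.

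The ratio of Kirrel2 to Kirrel3 compares the complementary pair within a library, so that scaling by library size drops out. By CPM it ranged from 1.12 (OMPCre cKO replicate 2) to 2.27 (AP2eCre Het replicate 3). Its log2 value was higher by 0.05 in the AP2eCre cKO libraries than in both controls (p = 0.833, exact permutation) and by 0.06 in the OMPCre line (p = 0.761, exact permutation). The widest difference between groups tested in the OMPCre line was that of Het over flox, 0.45 on the log2 scale (p = 0.3, exact permutation; smallest possible 0.1). Between the series of names the ratio differed by 0.38 on the log2 scale (p = 0.0219, adjusted p = 0.0439, exact permutation).

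Per transcript length, the order was Kirrel2, then Kirrel3, then Kirrel. On the TPM scale, which divides counts by transcript length, summed over each gene, Kirrel2 ranged from 24.5 to 85.5 over the 18 libraries, Kirrel3 from 10.31 to 33.3 and Kirrel from 6.71 to 19.4. In the 6 flox libraries the means were 56.2 ± 13.9, 22.8 ± 6.16 and 8.91 ± 1.63 TPM (SD). Both steps of the order held in 6 of 6 libraries of each kind (flox, Het and cKO), each with an exact sign-flip permutation p of 0.0312, the smallest for 6 libraries.

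The distances in this order rest partly on short models. The incomplete 575-base transcript Kirrel2-205 held 44.2 to 70.7% of the TPM of Kirrel2. With complete transcripts only, a choice made after the values were seen, the flox means were 20.3 ± 8.21 TPM for Kirrel2, 13.9 ± 3.84 for Kirrel3 and 8.91 ± 1.63 for Kirrel (SD, n = 6). Kirrel3 was then above Kirrel in 4 of 6 Het libraries (p = 0.562, exact permutation) and in 4 of 6 cKO libraries (p = 0.125, exact permutation), and Kirrel2 was above Kirrel in 5 of 6 Het libraries (p = 0.0625, exact permutation), so that these differences did not pass the test, whose smallest p is 0.0312.

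The next question was which transcripts carried the counts. Kirrel counts fell almost wholly on Kirrel-203 (46.7 to 92.8% of the gene's counts, median 76.8%) and Kirrel-202 (7.24 to 53.3%). Both encode the same 789 amino acids and differ in their untranslated ends, so that few reads tell them apart. Kirrel-201, with a coding region of 634 amino acids, was listed at 0 in 15 of 18 libraries. Nearly all Kirrel counts thus lay on models of the 789-residue protein.

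Kirrel2 counts fell on Kirrel2-201 (67.1 to 89.6%), which encodes 700 amino acids, and on Kirrel2-205 (8.58 to 22.3%). The retained-intron transcript Kirrel2-203 held 0.0599 to 7.41% and Kirrel2-202 was listed at 0 in all 18 libraries. The share of Kirrel2-201 was 85.1 to 89.6% in the AP and OMP series and 67.1 to 81.9% in the letter series, with no overlap. The difference of 11.6 percentage points had an exact permutation p of 0.00137, the smallest possible (adjusted p = 0.00549 over 8 measures). It was the highest share of its group in 6 of 6 groups, and Kirrel2-205 went the other way (8.58 to 10.6% against 14.7 to 22.3%). How many transcripts of other genes also separated by series was not counted.

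Kirrel3 was spread over more transcripts. Kirrel3-208, which encodes 745 amino acids, held 22.8 to 68.0% of counts with a median of 53.4%, and its lowest value was in AP2eCre Het replicate 1. Kirrel3-205 (777 amino acids) held 1.18 to 35.1%, Kirrel3-207 9.41 to 20.7%, Kirrel3-206 (733 amino acids) 0 to 19.01% and Kirrel3-209 (579 amino acids) 0 to 12.9%. Kirrel3-202 was listed at 0 in all 18 libraries and Kirrel3-201 in 14 of 18. Kirrel3-205 and Kirrel3-206 varied widely between replicates of a group.

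**Figure D3:**
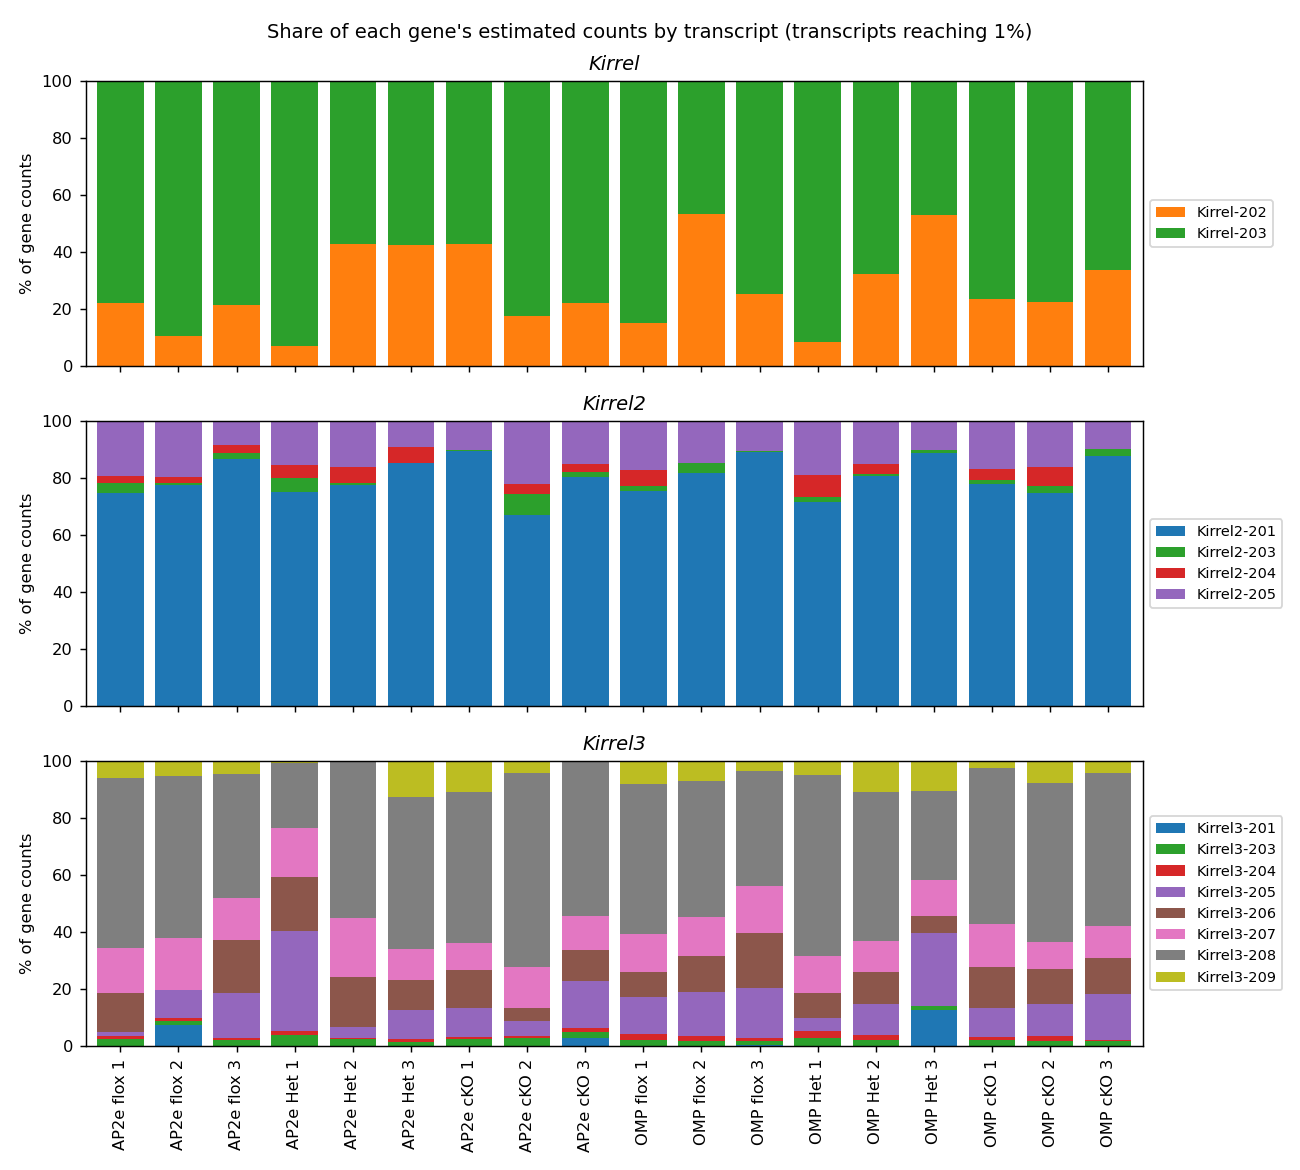
Share of each gene's estimated counts, in percent, held by each transcript that reached 1% in some library; each bar is 1 library and the 6 groups run from left to right. Kirrel2-201 takes 67.1 to 89.6% of Kirrel2, and the split of Kirrel between Kirrel-202 and Kirrel-203 shifts from library to library within groups.

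No transcript passed a test of Smad4 loss. Of the 17 transcripts 13 passed the filter on low counts. Their log2 fold changes ran from -0.88 to 0.84 in the AP2eCre line and from -0.57 to 0.79 in the OMPCre line, with all adjusted p at 1.00 (edgeR). Over all transcripts 0 of 58883 (0%) passed in the AP2eCre line, where 2850 (4.84%) had an unadjusted p under 0.05 and 637 passed with DESeq2, and 2 of 59367 (0.00337%) passed in the OMPCre line. For Kirrel2-201 the log2 fold change was -0.02 (SE 0.355) in the AP2eCre line and 0.08 (SE 0.318) in the OMPCre line. For Kirrel3-208 it was 0.20 (SE 0.438) and 0.18 (SE 0.241), and for Kirrel-203 0.27 (SE 0.208) and 0.22 (SE 0.195). The shares of 12 transcripts in their gene were compared in 4 comparisons each, and all 48 adjusted p were 1 (exact permutation).

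Grouping the Kirrel3 transcripts by the features printed above pools those that the reads separate poorly. These groups were made after the transcript values had been seen. Shares of the short end are of the transcripts that reach the 3′ region, which leaves out Kirrel3-203 and Kirrel3-204, as these end near the start of the gene. In the AP2eCre line the short 3′ end of Kirrel3-209 and Kirrel3-207 held 32.7, 34.3 and 25.9% of this TPM in the cKO libraries and 35.7 to 40.8% in the 6 controls, with no overlap. The means were 31.0 ± 4.45% (SD, n = 3) and 38.0 ± 2.24% (SD, n = 6), a difference of -7.03 percentage points. The exact permutation p was 0.0119, the smallest possible, and the adjusted p over the 20 tests of such features was 0.238.

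In the OMPCre line the short end held 34.1, 29.4 and 28.5% in the cKO libraries and 33.3 to 37.4% in the controls. The means of 30.7 ± 3.03% and 35.8 ± 1.46% differed by -5.14 points, with an exact permutation p of 0.0238 and an adjusted p of 0.238. Het and flox differed by -0.69 points in the AP2eCre line (p = 0.9, exact permutation) and by -0.98 points in the OMPCre line (p = 0.5, exact permutation). The cKO mean was thus the lower one in both lines and within each series of names (-8.87 and -3.35 points in the AP2eCre line, -3.37 and -8.68 points in the OMPCre line), without passing the threshold after adjustment.

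As a percent of counts of the same transcripts in place of TPM, the short end held 12.4 to 21.3% in the AP2eCre cKO libraries and 19.1 to 24.3% in their controls, a difference of -4.26 points (p = 0.0833, exact permutation). In the OMPCre line it held 15.9 to 18.4% against 19.1 to 23.9%, a difference of -4.23 points (p = 0.0119, exact permutation). The AP2eCre groups overlapped on this scale and the OMPCre groups did not.

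Of the TPM of all Kirrel3 transcripts, a denominator added after seeing the data, the short end held 29.3, 31.1 and 22.5% in the AP2eCre cKO libraries and 30.4 to 37.1% in the controls. The groups then overlapped through Het replicate 1, at a difference of -6.44 points (p = 0.0238, exact permutation). For OMPCre libraries it was 25.6 to 30.8% in the cKO group against 27.2 to 35.8%, a difference of -3.95 points (p = 0.0952, exact permutation). The separation of the AP2eCre groups by TPM thus rests on the choice of denominator.

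The 36-base exon was included in 75.2 to 92.3% of the TPM of Kirrel3 transcripts that span it, with a median of 84.3%. Inclusion was 86.5 ± 7.83% in AP2eCre cKO libraries and 84.3 ± 4.09% in their controls (p = 0.571, exact permutation), and 84.6 ± 2.62% and 82.2 ± 4.34% in the OMPCre line (p = 0.429, exact permutation). It was 5.91 points lower in the AP and OMP series than in the letter series (p = 0.011, adjusted p = 0.0293, exact permutation). The Kirrel2 form without the 39 bases, seen through Kirrel2-205, made up 48.04 to 74.3% of the Kirrel2 TPM that covers the site and 8.82 to 23.0% of the counts, since Kirrel2-205 is a short model. It differed by 1.77 points between cKO and controls in the AP2eCre line (p = 0.762, exact permutation).

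**Figure D4:**
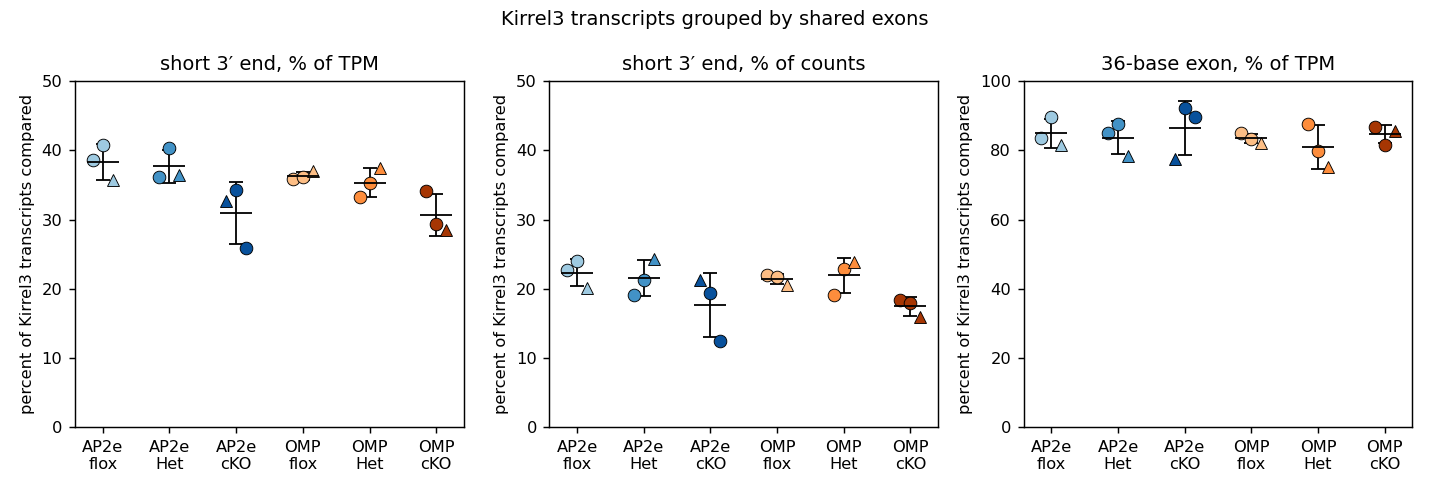
Percent of Kirrel3 with the short 3′ end (by TPM and by counts, among transcripts that reach the 3′ region) and with the 36-base exon (by TPM, among transcripts that span it), per library, with group mean and SD; circles and triangles are the series of library names. By TPM the AP2eCre cKO libraries sit at 25.9 to 34.3% for the short end, below their 6 controls, and inclusion of the 36-base exon overlaps between all groups.

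The levels of the Kirrel genes were next set against the apical and basal markers over the 18 libraries. Over all 18 libraries and on the CPM scale, Kirrel rose with the apical genes and Kirrel3 with the basal genes. Both relations fell short of the threshold in some subsets of the libraries. The apical score was the mean log2 CPM of the 5 apical genes and the basal score that of the 13 basal genes, among them Gnao1, Tfap2e, Robo2 and Vmn2r1 to Vmn2r7. The V1r and V2r totals were the summed CPM of each receptor family on the log2 scale, and the V2r total shares Vmn2r1 to Vmn2r7 with the basal score. In all, 15 relations were computed, with p from random pairings of libraries and adjusted over the 15.

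Kirrel correlated with the apical score with Pearson's r = 0.79 (adjusted p = 0.0012, permutation) and Spearman's rho = 0.70 (adjusted p = 0.0135, permutation). Without the 2 libraries farthest from the median apical score r was 0.65 (p = 0.0076, adjusted p = 0.114, permutation). It was 0.87 in the AP2eCre line (adjusted p = 0.0094, permutation), 0.66 in the OMPCre line (adjusted p = 0.174, permutation), 0.65 within the letter series and 0.93 within the AP and OMP series. Within groups, with the group means taken out, r was 0.66 (adjusted p = 0.155, permutation). The relation of Kirrel with the basal score was of the opposite sign, with r = -0.33 (adjusted p = 0.277, permutation), and was 0.31 on the scale of log2 TPM (adjusted p = 0.237, permutation).

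Kirrel3 correlated with the basal score with r = 0.77 (adjusted p = 0.0023, permutation) and rho = 0.65 (adjusted p = 0.0214, permutation), and with the V2r total with r = 0.75 (adjusted p = 0.0023, permutation) and rho = 0.70 (adjusted p = 0.0135, permutation). Within groups the values were 0.87 and 0.89 (adjusted p = 0.0273 for both, permutation). Both relations rest in part on AP2eCre Het replicate 1, the library lowest in basal score, V2r total and Kirrel3. Without it r was 0.59 and 0.57 (adjusted p = 0.0745 for both, permutation), and without the 2 libraries farthest from the median r was 0.51 and 0.50 (adjusted p = 0.185 for both, permutation).

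Kirrel2 passed no test with the apical markers on the CPM scale. Its r with the apical score was 0.21 (adjusted p = 0.481, permutation) and with the V1r total 0.47 (adjusted p = 0.105, permutation). On the scale of log2 TPM both passed, at 0.50 (adjusted p = 0.0439, permutation) and 0.57 (adjusted p = 0.0252, permutation). With the basal score it was 0.58 (adjusted p = 0.0465, permutation), but rho was 0.33 (adjusted p = 0.317, permutation), r was 0.37 without the 2 farthest libraries and 0.30 without AP2eCre Het replicate 1, and the test was lost on leaving out any of 7 single libraries. With the V2r total r was 0.55 (adjusted p = 0.0628, permutation). Within groups Kirrel2 passed with both, at 0.78 with the basal score (adjusted p = 0.0385, permutation) and 0.79 with the V2r total (adjusted p = 0.0273, permutation). Kirrel3 was at r = 0.21 with the apical score and 0.36 with the V1r total, neither past the threshold on the CPM scale, and at 0.53 (adjusted p = 0.0332, permutation) and 0.69 (adjusted p = 0.00456, permutation) on the scale of log2 TPM. Kirrel with the V1r total was at 0.52 (adjusted p = 0.0703, permutation) and 0.85 (adjusted p = 0.00015, permutation) on these scales. Within groups this relation was 0.17 by CPM (adjusted p = 0.716, permutation).

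Kirrel2 and Kirrel3 were positively related across libraries. Their r was 0.67 (adjusted p = 0.016 over 3 pairs, permutation) and rho 0.45 (adjusted p = 0.0956, permutation), but without the 2 farthest libraries r was 0.26. It was 0.83 in the letter series and 0.04 in the AP and OMP series. The relation did not pass within groups, at 0.68 (adjusted p = 0.0739, permutation). Nor did it in the AP2eCre line, at 0.80 (adjusted p = 0.0717, permutation), or the OMPCre line, at 0.38 (adjusted p = 0.456, permutation). Over the 18 libraries Kirrel was related to neither of them past the threshold (r = 0.23 with Kirrel2 and -0.07 with Kirrel3). Kirrel and Kirrel2 passed within the OMPCre line, with r = 0.82 (adjusted p = 0.0295, permutation), but not in the AP2eCre line, with r = -0.13 (adjusted p = 0.817, permutation), or without the 2 farthest libraries, with r = 0.52 (adjusted p = 0.117, permutation). The difference between the lines was not tested.

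**Figure D5:**
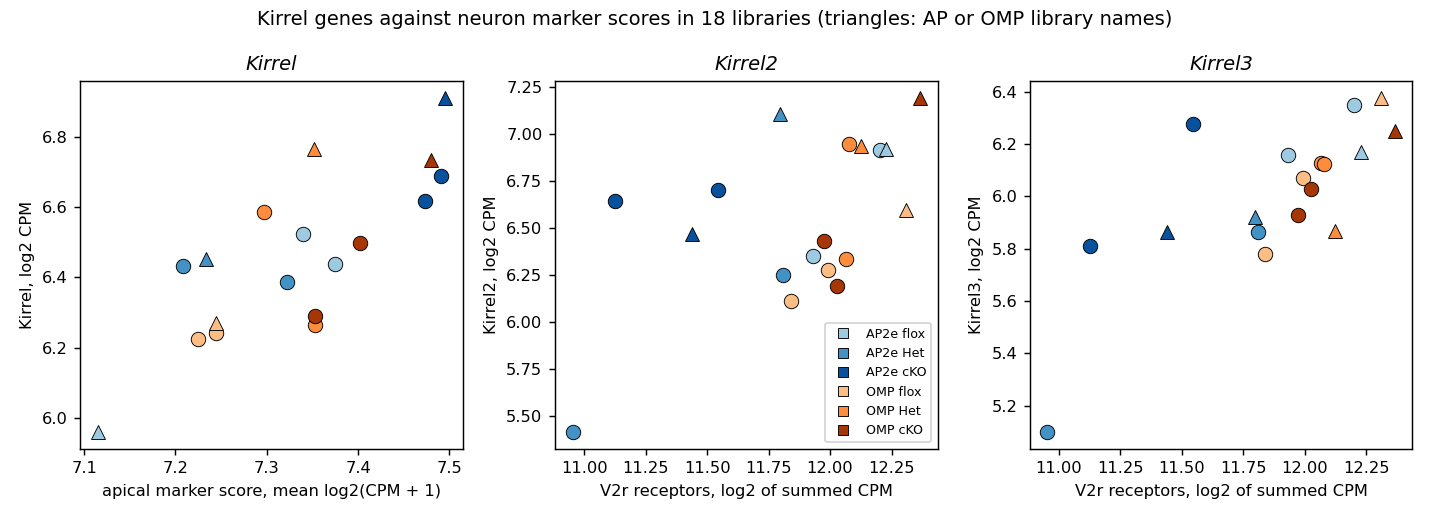
Log2 CPM of Kirrel against the apical score, and of Kirrel2 and Kirrel3 against the V2r total, over the 18 libraries. Colours are groups and triangles mark AP or OMP library names. AP2eCre Het replicate 1, at a V2r total of 10.95 on the log2 scale, lies at the lower left for Kirrel2 and Kirrel3.

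Among 12873 genes with a mean of at least 5 CPM, the patterns most like each member were named by Pearson's r over the 18 libraries, as a description. For Kirrel they were Fgfr1, a receptor for fibroblast growth factors (r = 0.95, and 0.91 within groups), Adamts2, which processes procollagen (0.94 and 0.92), and Tenm3, a teneurin adhesion molecule (0.92 and 0.86). The lowest r were those of Hyls1 (-0.81), Esrp1 (-0.80) and Selenbp1 (-0.80).

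For Kirrel3 the closest were Vil1, the actin-bundling protein villin (0.93 and 0.91 within groups), Syp, the synaptic vesicle protein synaptophysin (0.93 and 0.95), and Rnf220, a ubiquitin ligase (0.92 and 0.92), and the lowest were Prps1l3 (-0.87), Gpr155 (-0.81) and Tmem64 (-0.80). For Kirrel2 they were Pak7, a p21-activated kinase (0.85 and 0.89), 2010300C02Rik (0.85 and 0.91) and Nf2, which encodes merlin (0.84 and 0.86), and the lowest were Mtch2 (-0.81), Rchy1 (-0.80) and Nudt19 (-0.80). CPM scales out library size, but all genes of a library share its tissue makeup, which these values do not take out.

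Kirrel proteins act through partners at the membrane and in the actin skeleton. Of 20 genes listed for such partners, 9 were higher and 11 lower in AP2eCre cKO libraries, with a median log2 difference of -0.01 beside 0.00 over all genes, and 0 passed the test (edgeR; 2 at an unadjusted p under 0.05, where 1892 of all 18495 genes were). The OMPCre line gave the same counts of 9 and 11, with a median of -0.00 and 0 past the test (1 at an unadjusted p under 0.05, as were 3.95% of all genes). The 3 partners with the highest levels were Map1b, a microtubule-associated protein, Iqgap1, a scaffold of the actin skeleton, and Nckap1, a subunit of the actin-regulating WAVE complex. Map1b was at 1440 ± 141.8 CPM in AP2eCre cKO libraries (SD, n = 3) and 1259 ± 223.9 in their controls (SD, n = 6), a log2 difference of 0.19 (SE 0.155, adjusted p = 0.744, edgeR). Iqgap1 (log2 difference -0.03) and Nckap1 (-0.05) lay closer to 0. Beyond these, and picked after their values were seen, Nphs1, which encodes nephrin, was at 1.84 ± 0.383 and 1.31 ± 0.693 CPM, and Myo16, an unconventional myosin, at 4.15 ± 0.463 and 2.61 ± 0.387 CPM (log2 difference 0.67, SE 0.185, adjusted p = 0.316, edgeR). In the OMPCre line the log2 difference of Map1b was 0.28 (SE 0.114, adjusted p = 1.00, edgeR).

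Of 15 genes listed for sorting of olfactory and vomeronasal axons, 13 were higher and 2 lower in AP2eCre cKO libraries, with a median log2 difference of 0.16 beside 0.00 over all genes and 0 past the test (edgeR; 2 at an unadjusted p under 0.05, where 1892 of all 18495 genes were). The 3 with the highest levels were Cntn4, an axonal contactin, Ncam1, an adhesion molecule of young axons, and Nrp2, a semaphorin receptor of apical VSN axons that the apical list also holds. Efna5 is also on the apical list, Ncam1 on that of immature VSNs and Robo2 on the basal list. Nrp2 was at 361.2 ± 29.6 CPM in cKO libraries and 295.5 ± 24.2 in controls (log2 difference 0.29, SE 0.0928, adjusted p = 0.345, edgeR), Ncam1 at 391.4 ± 99.4 and 308.9 ± 64.6 CPM (0.34, SE 0.198, adjusted p = 0.610, edgeR), and Cntn4 at 367.1 ± 37.8 and 361.2 ± 54.8 CPM (0.02, SE 0.139, adjusted p = 0.979, edgeR). In the OMPCre line 9 were higher and 6 lower, with a median of 0.10 and 0 past the test (2 at an unadjusted p under 0.05, as were 3.95% of all genes). There Ncam1 was at 379.1 ± 13.2 and 299.0 ± 15.3 CPM (0.34, SE 0.0681, adjusted p = 0.534, edgeR), and Nrp2 and Cntn4 had log2 differences of 0.23 and 0.15.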

How the data were processed

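Whole vomeronasal organs were sequenced as stranded, polyA-selected single-end libraries. The authors quantified reads with Salmon 0.14.0 on mm10 (GRCm38) and, per the labels and the processing notes, used DESeq2 1.22.2. The deposited files give estimated counts and TPM per transcript. The paper's methods name a coding-sequence assembly, but the listed length equals the full GENCODE vM21 transcript length for 115995 of 115995 transcripts with a reference length. Of 116248 transcripts, 116072 were paired with a gene, and the 176 others held at most 0.0324% of a library and were left out.

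Estimated counts were rounded, summed per gene and scaled by TMM. Genes were filtered with filterByExpr and tested with edgeR 4.0.16 (glmQLFit and glmQLFTest; R 4.3.3) on all genes, within each line, with flox and Het libraries together or apart, and Benjamini-Hochberg adjustment at 0.05. Single values were compared by two-sided exact permutation tests (scipy 1.17.1), and correlations over 18 libraries by 100000 random pairings. Tests were checked on simulated data. DESeq2 1.42.0, other scalings and filters, a replicate block, the name series as a term and leaving out each library were the alternatives. The genes named are the members, up to 3 of each list with the highest mean CPM unless stated, and per member the 3 with the highest and the 3 with the lowest r. The members, gene lists and tests were chosen with earlier results of these data known. Labels name biological replicates. Counting error only enters the depth range. 1 AP2eCre library, a Het by its title and a cKO by its genotype label, entered no comparison.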

Additional observations from a re-analysis of the deposited data

Results flagged for a closer look

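Kirrel in AP2eCre flox replicate 3 was at 62.3 CPM, the lowest of the 6 AP2eCre controls, and its gap to the next library was 0.721 of their range. It was looked at because this gap is wide for 6 libraries. Of the sets of 6 controls, 18 were looked at, and chance sets a library apart in about 1 set of 20. The library lowers the control mean that the AP2eCre cKO libraries were compared with, and the log2 difference of Kirrel without it was 0.30.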

How the results depend on the processing

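In the edgeR and DESeq2 fits no Kirrel gene passed the adjusted threshold in any comparison between groups, and no Kirrel transcript in the comparison of cKO with both controls of a line, under the alternatives run, and the direction of Kirrel in the AP2eCre cKO libraries held under all of them, with log2 differences of 0.27 to 0.43 when single libraries were left out. The cause was not tested for any of the changes that follow. The labels do not say that replicate numbers mark a shared animal or batch, and not every same-numbered pair deviated together by more than 0.1: deviations of same-numbered libraries correlated by -0.0826 on average (-0.308 to 0.191) in the AP2eCre line and 0.238 (0.0218 to 0.523) in the OMPCre line, and 1 of 9 and 7 of 9 libraries correlated best with their own number, a hint of pairing from the data in the OMPCre line. In that line each replicate 3 was of the OMP name series, so that number and series partly coincide. Pairs of the same series correlated there by 0.171 on average, and pairs of different series by -0.21. With the number as a replicate block, the genes called were 2 for AP2eCre cKO against both controls, 2 against flox and 8 against Het, 0 for OMPCre cKO against flox and 6 against Het, 3 and 7 for Het against flox in the AP2eCre and OMPCre lines, and 8 between the controls, with 0 transcripts in the OMPCre line. Under the block Kirrel2 reversed to -0.00160 between the controls and Kirrel2-201 to 0.045 in the AP2eCre line.

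DESeq2 called more: 309, 199 and 374 genes for AP2eCre cKO against both controls, flox and Het, 43, 79 and 142 in the OMPCre line, 123 and 155 for Het against flox in the AP2eCre and OMPCre lines, 19 for the interaction, 140 between the controls, and 637 and 288 transcripts. Length-scaled counts gave 4, 3 and 7 genes in the AP2eCre line, 5 for its Het against flox and 2 for OMPCre cKO against flox, and reversed Kirrel3 to -0.038 and -0.043 for AP2eCre and OMPCre cKO against both controls and to -0.00396 for OMPCre cKO against Het. With the series of names as a term, 2 and 1 genes were called against both controls in the AP2eCre and OMPCre lines, 7 for AP2eCre cKO against Het and 5 for its Het against flox, with Kirrel3 at -0.00159 in the OMPCre line, Kirrel2 at 0.011 for the interaction and -0.00392 between the controls. Fitting 3 groups gave 11 and 6 genes against both controls. Fitting all 18 libraries gave 16 and 15 against both controls, 29 and 4 against flox, 16 for OMPCre cKO against Het, and 33 and 9 for Het against flox. A filter of 1 count gave 11 for AP2eCre cKO against flox and 14 for its Het against flox.

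For the ratio of Kirrel2 to Kirrel3, TPM reversed the value of AP2eCre cKO against Het to 0.10. With complete transcripts only, Kirrel3 over Kirrel was 0.11 in Het and 0.21 in cKO libraries and Kirrel2 over Kirrel 0.86 in Het libraries (log2), all no longer past the threshold. Of the correlations, Kirrel with the apical score no longer passed within groups (0.66), in the OMPCre line (0.66), in the letter series (0.65), in the AP and OMP series (0.93) or without the 2 farthest libraries (0.65). Kirrel3 with the basal score no longer passed in the OMPCre line (0.63), in the series (0.80 and 0.70) or without those 2 (0.51), nor did Kirrel3 with the V2r total (0.81, 0.75, 0.77 and 0.50). Kirrel2 with the basal score no longer passed in the lines (0.65 and 0.63), the series (0.56 and 0.50) or without those 2 (0.37). On log2 TPM Kirrel passed with the V1r total (0.85) and the main olfactory score (0.59), Kirrel2 with the apical score (0.50), V1r total (0.57) and V2r total (0.56, and 0.79 within groups), and Kirrel3 with the apical score (0.53) and V1r total (0.69). Reversed values, none past the threshold, were Kirrel with the basal score (0.31 by TPM, 0.098 within groups, 0.38 in the OMPCre line) and V2r total (0.30, 0.11 and 0.50), Kirrel2 in the AP and OMP series with the apical score (-0.13) and V1r total (-0.51), Kirrel2 in the AP2eCre line with the main olfactory score (-0.16), Kirrel3 in the AP and OMP series with the apical score (-0.27) and V1r total (-0.14), and Kirrel3 with the main olfactory score (0.22 by TPM, 0.057 within groups, 0.054 in the letter series).

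Leaving out each library in turn gave the following ranges. Genes called ran from 2 to 8, 2 to 25 and 7 to 66 for AP2eCre cKO against both controls, flox and Het, 0 to 2, 0 to 5 and 3 to 20 in the OMPCre line, 3 to 21 and 6 to 19 for Het against flox, 0 to 1 for the interaction and 4 to 23 between the controls, and transcripts from 0 to 8 and 0 to 19. The high ends came without AP2eCre Het replicate 1 (25 and 21), AP2eCre cKO replicate 2 (66), OMPCre flox replicate 3 (20) and OMPCre cKO replicate 3 (19 transcripts). In the AP2eCre line the log2 range was -0.14 to 0.14 for Kirrel2, -0.18 to 0.13 for Kirrel2-201, -0.14 to 0.11 for Kirrel3 and -0.050 to 0.18 for the ratio against both controls, -0.13 to 0.72 for Kirrel2 and -0.17 to 0.27 for the ratio against Het, -0.038 to 0.24 for the ratio against flox, and -0.055 to 0.20 for Kirrel and -0.15 to 0.28 for the ratio in Het against flox. In the OMPCre line it was -0.0089 to 0.21 for Kirrel, -0.25 to 0.29 for Kirrel2, -0.34 to 0.31 for Kirrel2-201, -0.091 to 0.066 for Kirrel3 and -0.14 to 0.25 for the ratio against both controls, -0.023 to 0.51 for Kirrel2 and -0.17 to 0.14 for Kirrel3 against flox, -0.16 to 0.084, -0.45 to 0.098, -0.066 to 0.095 and -0.41 to 0.026 for Kirrel, Kirrel2, Kirrel3 and the ratio against Het, and -0.20 to 0.11 for Kirrel3 in Het against flox. For the interaction it was -0.28 to 0.26 for Kirrel2 and -0.15 to 0.11 for Kirrel3, and between the controls -0.085 to 0.041, -0.14 to 0.22, -0.21 to 0.0041 and -0.032 to 0.21 for Kirrel, Kirrel2, Kirrel3 and the ratio. Kirrel2 correlated with the V1r total by 0.31 to 0.57, the V2r total by 0.26 to 0.65 and the basal score by 0.30 to 0.66, and Kirrel3 with the V2r total by 0.57 to 0.84, the basal score by 0.59 to 0.84 and the apical score by -0.024 to 0.32. The call of Kirrel3 with both was lost only without AP2eCre Het replicate 1. That of Kirrel2 with the basal score was lost without AP2eCre flox 1 or 3, AP2eCre Het 1, OMPCre Het 2 or 3, or OMPCre cKO 1 or 3, and Kirrel2 with the V2r total passed without AP2eCre Het 3, AP2eCre cKO 2 or 3, or OMPCre cKO 2, and with the V1r total without AP2eCre cKO 1. The order per length kept its direction with 5 libraries a kind, where the smallest p is 0.0625: Kirrel2 over Kirrel by 2.55 to 2.72, 2.33 to 2.61 and 2.31 to 2.53 in flox, Het and cKO libraries, Kirrel2 over Kirrel3 by 1.22 to 1.39, 1.54 to 1.68 and 1.47 to 1.64, and Kirrel3 over Kirrel by 1.28 to 1.40, 0.69 to 0.93 and 0.74 to 0.89. The short 3′ end kept its direction (-8.69 to -4.50 and -6.88 to -4.07 points), also as a share of all Kirrel3 TPM (-6.44 and -3.95) and counts (-4.15 and -4.00).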

Other observations

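The AP2eCre library whose labels disagree on its group held 89.1 CPM of Kirrel, 105.7 CPM of Kirrel2 and 53.0 CPM of Kirrel3, with TMM scaling over all 19 libraries.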
